A study of Canis lupus familiaris with 30 samples.

Results

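Of the 30 libraries in this canine lymphoma series, 10 taken before treatment from dogs whose tumour had been immunophenotyped were compared: 3 with the label T-Cell (dogs 028, 036 and 038) and 7 with the label B-Cell (dogs 003, 027, 029, 030, 033, 034 and 037). They were chosen by timepoint and immunophenotype label, with earlier results of these data known. The other initial libraries were 5 with the label Unknown, which entered no comparison. Each library is bulk RNA of cells drawn by fine needle from an enlarged lymph node of a client-owned pet dog, 1 library per dog, so that the neoplastic cells were sequenced together with whatever else the needle took up. The immunophenotype came from flow cytometry of a parallel aspirate, and the study admitted dogs that had received nothing beyond 1 injection of prednisone, a steroid that kills lymphocytes. Prednisone use, breed, age and sex per dog are not given in the labels, and all dogs went on to CHOP chemotherapy after this sample.

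Lymphoma of T-cell and of B-cell origin are tumours of different lymphocyte lineages. A T cell recognises antigen through its receptor, which signals through the CD3 chains and kinases such as LCK, under a programme set by transcription factors such as GATA3. A B cell signals through the immunoglobulin receptor and the kinase BTK, is held in its lineage by PAX5, and presents antigen on MHC class II. Dogs also have an indolent T-cell form, T-zone lymphoma, whose cells are known for high CD25, the alpha chain of the interleukin 2 receptor. The comparison asks which genes separate the labels at diagnosis. Values are deposited FPKM, reads scaled by transcript length and library depth, and differences are T-Cell minus B-Cell labelled means of log2(FPKM+1), a scale that understates fold changes of low genes. A gene was tested where its mean FPKM over the 10 libraries exceeded 1, with limma, and called at a Benjamini-Hochberg adjusted p under 0.05.

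The library of dog 038 went against its label in the genes that define these lineages, and that of dog 029 did so in T-cell genes. The library of dog 038, with the label T-Cell, carried B-cell genes at the level of the B-Cell labelled libraries and few T-cell transcripts. The library of dog 029, with the label B-Cell, carried T-cell genes far above the other 6 B-Cell labelled dogs, together with B-cell genes, several of them below those 6. Of the 4 markers proposed for this comparison, CD3E and PAX5 could be found in the files through the gene symbols available, and CD79A and MS4A1 were not analysed here. CD3E, the epsilon chain of the T-cell receptor complex, stood at 188, 328 and 14.6 FPKM in dogs 028, 036 and 038. In the 7 B-Cell labelled libraries it ranged from 1.56 to 178 with a median of 9.28, and the highest was dog 029, above the next at 27.4. PAX5, the transcription factor of B-cell identity, stood at 1.52, 0.291 and 62.8 FPKM in the same 3 T-Cell labelled dogs and from 17.7 to 60.2, with a median of 27.2, in the others. For both genes the groups overlapped. CD3E in dog 038 was lower than in B-Cell labelled dogs 034 and 037, and PAX5 in dog 038 was the highest of all 10.

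With the labels as given, the mean difference of CD3E was 2.89 on the log2 scale (exact two-sided permutation p = 0.0917 over the 120 ways to choose 3 of 10 libraries, Benjamini-Hochberg adjusted over both genes 0.0917). That of PAX5 was -2.39 (exact permutation p = 0.0667, adjusted 0.0917), and the smallest p this design allows is 0.00833. Without dog 038 the differences were 4.23 and -4.10, given as a description with no p, since these genes are the reason for leaving it out. No reassignment of either library was made, and whether the label, the sample or the mixture of cells in the aspirate differs was not tested. In bulk libraries fewer cells of a type and less RNA per cell cannot be told apart.

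**Figure D1:**
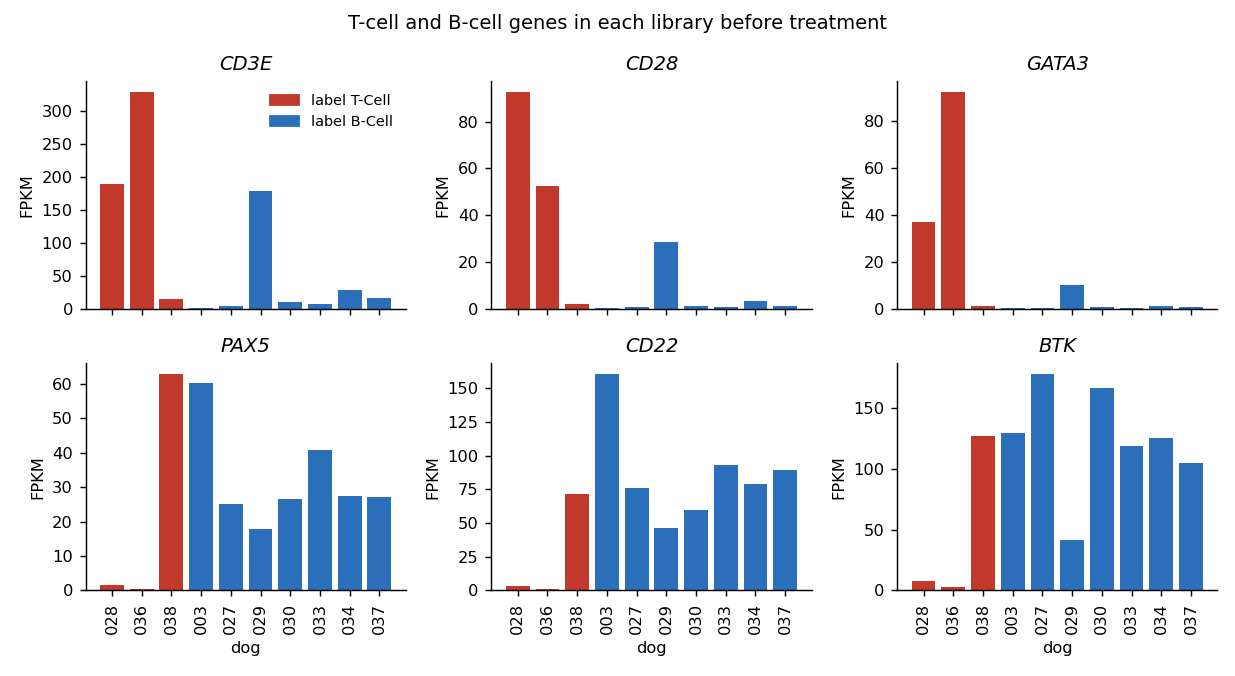
FPKM of 3 T-cell genes (upper row) and 3 B-cell genes (lower row) in each of the 10 libraries, 1 bar per dog, red for the label T-Cell and blue for the label B-Cell. Dog 038 is low in the upper row and high in the lower row, and dog 029 is the highest of the B-Cell labelled dogs in the upper row.

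Across all 13877 tested genes dog 038 again lay near the 6 B-Cell labelled dogs other than 029. Dog 029 was between them and dogs 028 and 036 on the first principal component, and apart on the second. The first principal component of log2(FPKM+1) held 40.6% of the variance and set dogs 036 (score 115) and 028 (75.5) apart from the rest, with dog 029 next at 28.1 and dog 038 at -17.2, just above the range of -49.3 to -19.1 of the 6 remaining B-Cell labelled dogs. The second held 15.1% and had dogs 029 (-74.1) and 038 (-37.5) at one end. Spearman correlations between libraries, which are across genes and describe these libraries only, were 0.872 between dogs 028 and 036 and 0.889 to 0.953 among the 6 B-Cell labelled dogs other than 029. Dog 038 correlated with those 6 at 0.878 to 0.916 and with dogs 028 and 036 at 0.750 to 0.791. Dog 029 correlated at 0.810 to 0.863 with the 6 and at 0.793 to 0.819 with dogs 028 and 036. Total counts per library ran from 10047845 in dog 029 to 43413353 in dog 037, with the T-Cell labelled libraries from 12592735 to 21025004.

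**Figure D2:**
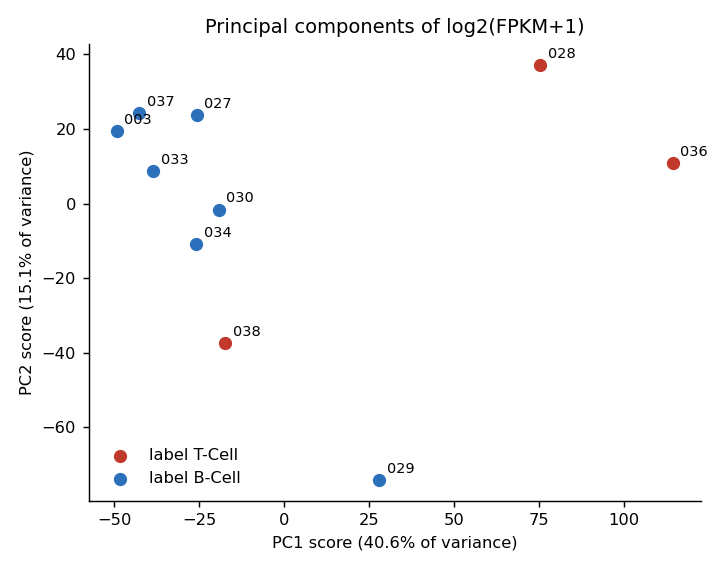
Scores of the 10 libraries on the first and second principal components of log2(FPKM+1) over the tested genes, red for the label T-Cell and blue for the label B-Cell, with dog numbers. Dogs 028 and 036 lie to the right, 6 of the B-Cell labelled dogs to the left, dog 038 near the latter and dog 029 at the bottom.

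With the labels as given, few genes separated the groups. Of 13877 genes tested, 2 (0.0144%) were called higher and 3 (0.0216%) lower in the T-Cell labelled libraries, while 2635 had an unadjusted p under 0.05. The median difference over all tested genes was -0.01. At such shares a short gene list would most often hold no called gene, so 0 calls in a list is no result about it. Only 1 of the 5 has a gene symbol here: IL2RA, the alpha chain of the high-affinity interleukin 2 receptor and the antigen known as CD25. IL2RA stood at 1.76, 0.968 and 2.33 FPKM in dogs 028, 036 and 038, a mean of 1.68 ± 0.682 (SD, n = 3), and from 7.52 to 36.7 with a median of 17.3 in the 7 B-Cell labelled dogs, a mean of 18.5 ± 9.28 (SD, n = 7). The groups did not overlap, and dogs 038 and 029, set apart by their lineage genes, lay with their labelled group here, at 2.33 and 17.3. IL2RA is named because it passed with these labels in these same libraries. Neither the lack of overlap nor the place of these dogs therefore adds support. The difference was -2.76 (SE 0.39, limma adjusted p = 0.0456) on the log2(FPKM+1) scale. Without dogs 038 and 029 it was -2.93 (SE 0.48, limma adjusted p = 0.0033). Those dogs were left out for lineage genes in these same libraries, so this p is a description only. The call rests close to the threshold: over 23 alternative settings its adjusted p ran from 1.92e-06 to 0.336, and it passed in 7. It was lost when any 1 of dogs 028, 036, 003, 027, 033, 034 and 037 was left out, at limma adjusted p of 0.0591 to 0.336.

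The other 4 called genes are given by identifier, since no symbol was available, and were chosen after their values were seen. ENSCAFG00000003432 stood at 8.11, 6.94 and 5.17 FPKM in the T-Cell labelled dogs and at 0.0174 to 0.982 in the others, a difference of 2.56 (SE 0.29, limma adjusted p = 0.0142). ENSCAFG00000010034 stood at 12.4, 16.1 and 4.19 against 0 to 1.25, a difference of 2.90 (SE 0.40, limma adjusted p = 0.0453). Neither overlapped between the groups, and dog 038 had the lowest T-Cell labelled value of both. ENSCAFG00000037515 stood at 0.834, 0 and 0.412 FPKM against 3.84 to 12.3, a difference of -2.76 (SE 0.35, limma adjusted p = 0.0299). Leaving out 1 library at a time ended the call of ENSCAFG00000003432 in 4 of 10 cases, of ENSCAFG00000010034 in 8 and of ENSCAFG00000037515 in 7, and leaving out dog 028 or dog 036 ended all 3. ENSCAFG00000031971 is listed at 0 in all 3 T-Cell labelled libraries and at 85.7 to 249 FPKM in the 7 others, so that no fold is given. It is the 1 tested gene listed at 0 in all 3 and at 1 FPKM or more in all 7. Other genes have zeros of a like kind: 24 were listed at 0 in at least 1 library and at 20 FPKM or more in at least 5. At the six-week timepoint ENSCAFG00000031971 is listed at 0 in 5 of these 10 dogs, 1 of them with the label T-Cell, and at 74.8 and 23.4 FPKM in dogs 028 and 036.

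Among genes with a symbol, the next smallest p values belonged to genes that did not pass. Those higher in the T-Cell labelled libraries were ABCC5, an ATP-binding cassette exporter of cyclic nucleotides, ZNF507 and ZNF711, zinc finger proteins, KCNE3, an accessory subunit of potassium channels, ZMYM2, a zinc finger corepressor, KDM5B, a histone H3 lysine 4 demethylase, MREG, a regulator of melanosome transport, and TMEM67, a protein of the primary cilium. ABCC5 stood at 25.3, 18.03 and 2.91 FPKM in dogs 028, 036 and 038 and at 0.307 to 1.60 in the B-Cell labelled dogs, a difference of 2.82 (SE 0.50, limma adjusted p = 0.0935). KDM5B stood at 55.3, 94.3 and 40.8 against 14.3 to 38.9, and its nearest B-Cell labelled library was dog 029. The 8 were picked for small p in these same libraries, so a lack of overlap adds no support. Among all tested genes 1.70% had the T-Cell labelled libraries above the others without overlap. In 7 of these 8 genes the groups did not overlap. The exception was MREG, at 113, 59.8 and 7.29 FPKM against a median of 0.80, where dog 003 reached 16.3. Differences of the 8 genes ran from 1.06 for ZNF507 to 3.85 for MREG, with limma adjusted p from 0.0935 to 0.141.

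Those lower were FCRL5, an Fc receptor-like protein of B cells, IGFBP3, which binds insulin-like growth factors, BCAT1, the cytosolic branched-chain aminotransferase, SP140, a nuclear body protein of lymphoid cells, CALHM6, of a family of membrane channels, TEAD2, a TEA-domain transcription factor, and ING5, a chromatin reader. FCRL5 stood at 0.420, 0.191 and 0.849 FPKM against 3.81 to 20.4, a difference of -2.70 (SE 0.47, limma adjusted p = 0.0935). BCAT1 stood at 1.80, 0.991 and 11.8 against 16.4 to 29.0, and SP140 at 13.9, 8.44 and 43.5 against 56.8 to 89.5. In both, dog 038 lay between the other T-Cell labelled dogs and the lowest B-Cell labelled dog. IGFBP3 was at 0, 0.0944 and 0.140 FPKM against 1.40 to 4.78. None of the 7 overlapped between the groups, and their limma adjusted p values were 0.0935 to 0.118. These too were picked for small p in the same libraries, so the lack of overlap adds no support. Among all tested genes 2.69% had the T-Cell labelled libraries below the others without overlap.

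**Figure D3:**
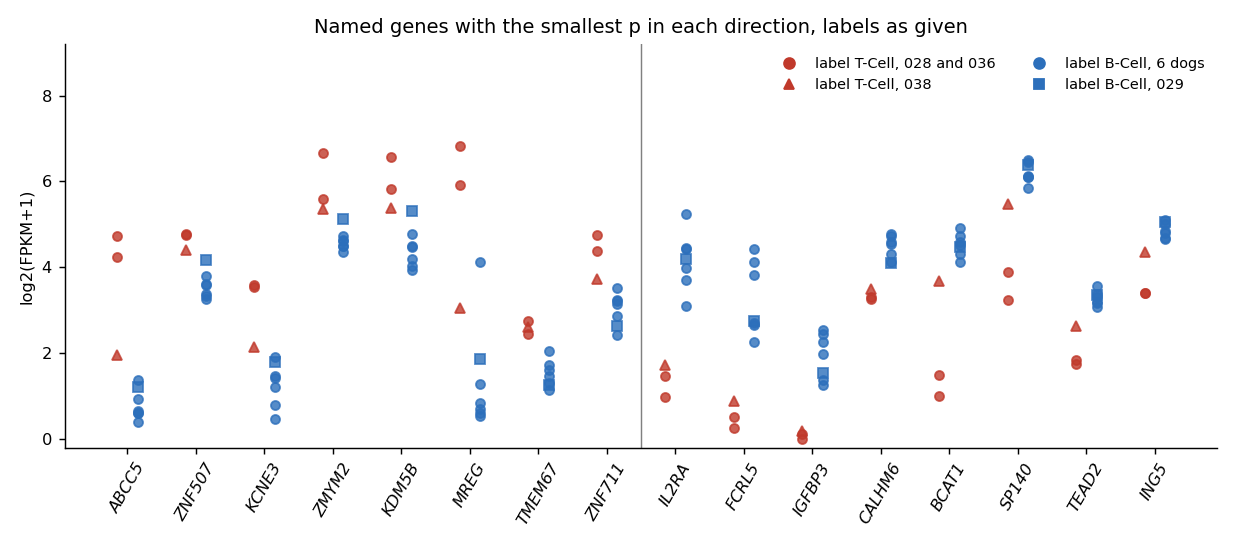
Values of log2(FPKM+1) of the genes with a symbol and the smallest p in each direction, higher in the T-Cell labelled libraries left of the line and lower right of it. Each point is 1 library, triangles are dog 038 and squares dog 029, and only IL2RA passed the threshold.

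Complete separation of the labels was rare over all genes. In 236 of 13877 tested genes (1.70%) all 3 T-Cell labelled libraries lay above all 7 others, and in 373 (2.69%) they lay below. None of the 8 T-cell receptor or 15 T-cell signalling genes tested was among the former. At a share of 1.70%, 0 in lists of this size is no result about them. FCRL1, a B-cell surface receptor, was among the latter at 0.381, 0 and 5.15 FPKM against 5.71 to 13.7, as was CCR6, a chemokine receptor of B cells and some T cells, at 2.24, 1.32 and 22.8 against 23.2 to 112. In both, the gap between dog 038 and dog 029 was small.

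Leaving out dog 038 alone raised the calls to 821 higher (5.94%) and 1001 lower (7.24%) of 13822 genes tested. Leaving out both dogs gave 1512 higher (11.2%) and 1630 lower (12%) of 13538, for 2 T-Cell and 6 B-Cell labelled libraries. Of the 1822 genes called without dog 038, 1821 (99.9%) were also called without both, where they made up 58.0% of the calls, and all 5 genes called with every library were among them. The 2 fits share 2 T-Cell and 6 B-Cell labelled libraries, so this overlap is not independent agreement. Both libraries were doubted because of their lineage genes. For the T-cell, B-cell, plasma cell, MHC class II and homing lists only the median difference without both libraries is therefore given, as a description. For other lists the calls without both are given beside the share of all genes. Leaving out these dogs favours genes that follow the lineages, so these calls too are descriptions. For the 3142 genes called without both, dog 038 lay nearer to the mean of the 6 B-Cell labelled dogs than to that of dogs 028 and 036 in 2543 (80.9%). Placed on a line with 0 at the B-Cell and 1 at the T-Cell mean, its median position was 0.133. Dog 029 lay nearer to the B-Cell mean in 1667 (53.1%), with a median position of 0.464, which was 0.546 for genes called higher and 0.390 for genes called lower.

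**Figure D4:**
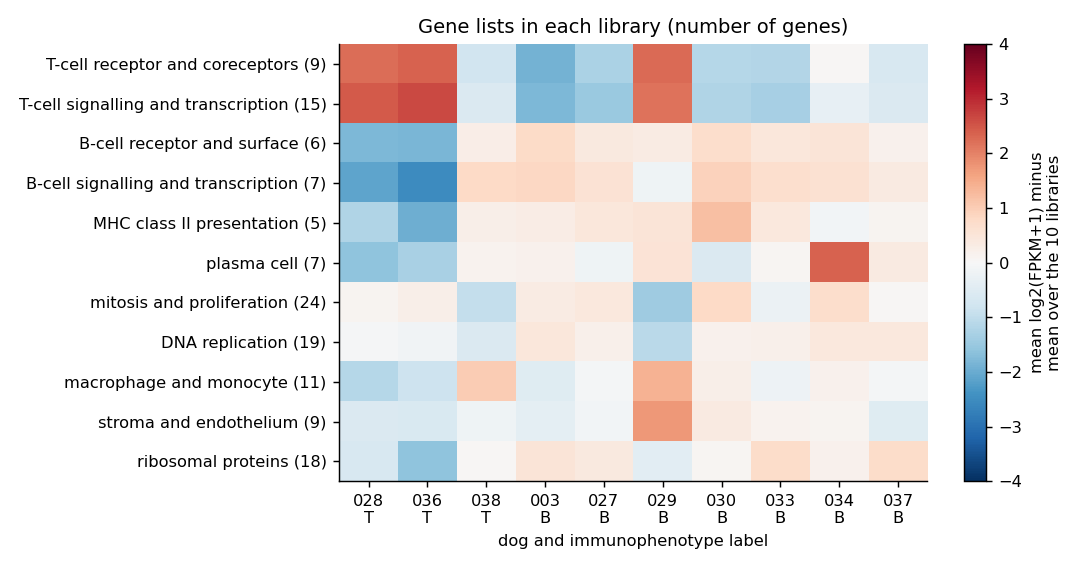
Mean log2(FPKM+1) of each gene list in each library, minus its mean over the 10 libraries, in red where above and blue where below; T and B under the dog number give the label. Dogs 028, 036 and 029 are red in the T-cell lists, dogs 028 and 036 alone are clearly blue in the B-cell lists, and dog 034 stands out for plasma cell genes.

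The T-cell receptor and its coreceptors followed dogs 028, 036 and 029. Of 18 genes in this list 9 had an identifier and 8 were tested. With the labels as given 0 of 8 passed, with a median difference of 2.16 beside -0.01 for all genes. Without dogs 038 and 029 the median was 3.70. The summed FPKM of the 9 was 605 and 776 in dogs 028 and 036, 458 in dog 029, 39.4 in dog 038 and 28.0 to 98.6 in the remaining B-Cell labelled dogs. CD28, the costimulatory receptor, stood at 92.7, 52.5 and 1.88 FPKM in the T-Cell labelled dogs, at 28.4 in dog 029 and at 0.0944 to 3.41 in the other 6. CD40LG, the ligand by which T cells help B cells, stood at 33.4, 112 and 4.46, at 41.9 in dog 029 and at 0.852 to 7.85 in the rest. TRAT1, an adaptor that stabilises the receptor complex, stood at 113, 82.8 and 4.87, at 46.0 and at 0.341 to 6.28. CD5, a negative regulator of the receptor, was highest in dog 029 at 36.2 FPKM, with 26.2, 17.8 and 3.35 in the T-Cell labelled dogs. In each of these genes dog 038 lay within or near the range of the 6 dogs.

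CD3D, the delta chain, was the least separated of the CD3 genes read here. It stood at 109, 148 and 4.67 FPKM in dogs 028, 036 and 038 and at 7.21 to 52.7 in the B-Cell labelled dogs, where the 6 other than dog 030 were at 25.5 to 52.7, so that dog 038 was the lowest of all 10. Its difference with the labels as given was 0.57 (SE 0.89, limma adjusted p = 0.748), and it turned negative without dog 028 or dog 036, at -0.06 and -0.29.

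T-cell signalling and transcription genes behaved the same way. All 15 genes with an identifier, of 24 in the list, were tested. With the labels as given 0 passed (median 2.08), and without the 2 dogs the median was 3.68. GATA3, the T-helper transcription factor, stood at 36.9, 92.2 and 0.995 FPKM, at 9.83 in dog 029 and at 0.0838 to 0.908 in the other 6. LCK, the kinase that starts receptor signalling, stood at 62.3, 124 and 6.38, at 86.4 in dog 029 and at 4.26 to 16.7. SH2D1A, the adaptor of SLAM receptors, stood at 322, 259.6 and 6.79, at 55.9 in dog 029 and at 1.26 to 12.4. THEMIS, needed for thymocyte selection, stood at 215, 123 and 2.89, at 48.0 and at 0.149 to 4.33. FYB1, an adaptor of integrin activation, stood at 160.2, 185 and 19.2 FPKM against 1.80 to 10.5 in the 6 dogs, so that dog 038 lay above them, with dog 029 at 130.4.

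The T-cell lists were not uniform between the 2 T-Cell labelled dogs that carried them. PRKCQ, the protein kinase C isoform of the T-cell synapse, was 34.7 FPKM in dog 028 and 2.73 in dog 036, and IL7R, the receptor of the survival cytokine interleukin 7, was 57.4 and 2.62. Dog 029 was highest of all 10 in both, at 37.4 and 131. PRKCQ and IL7R were chosen after their values were seen.

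The largest differences without dogs 038 and 029 were in genes that dogs 028 and 036 carried at high levels and the 6 others barely at all. INPP4B, a phosphatase of the phosphoinositide 3-kinase pathway, stood at 645 and 192 FPKM in dogs 028 and 036 and at 2.35 in dog 038, against 27.0 in dog 029 and 0.0877 to 4.27 in the 6, a difference of 7.36 (SE 0.60). CAMK4, a calcium-dependent kinase of T cells, stood at 300.4, 199.8 and 7.63, against 107 in dog 029 and 0.144 to 8.50, a difference of 6.18 (SE 0.67). Both were also above the 6 in dog 029.

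Other genes of the same ranking were low in dog 029 too. MED12L, a paralogue of a Mediator subunit, stood at 119 and 334 FPKM in dogs 028 and 036, and at 1.18 in dog 038, 2.22 in dog 029 and 0 to 2.85 in the 6. PTPRD, a receptor tyrosine phosphatase, stood at 106 and 45.5, with 0.122 in dog 038, 0.355 in dog 029 and at most 0.735 in the others. SLC15A1, the peptide transporter PEPT1, stood at 46.2 and 59.7, with 0.169 in dog 038, 0.359 in dog 029 and at most 0.544. Their differences without the 2 dogs were 6.94 (SE 0.55), 5.76 (SE 0.36) and 5.43 (SE 0.28). In these 3 genes dog 029 therefore lay within the range of the 6, whereas in CD3E, CD5 and LCK it lay far above them. T-cell genes also differed between dog 029 and dogs 028 and 036. Both of the latter were above all other libraries in 4 of 9 receptor and 7 of 15 signalling genes. Dog 029 was above the 6 in 9 and 14 of these.

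B-cell genes were low in dogs 028 and 036 and present in the other 8. In the B-cell receptor and surface list 6 of 19 genes had an identifier, and all 6 were lower with the labels as given (median -1.60), but 0 passed. Without the 2 dogs the median was -2.45. CD22, an inhibitory coreceptor, stood at 3.43, 1.12 and 71.8 FPKM in dogs 028, 036 and 038 and at 46.1 to 161 in the B-Cell labelled dogs. CXCR5, the receptor that leads B cells to follicles, stood at 0.439, 0.484 and 13.6 against 7.87 to 16.2. CD37, a tetraspanin, stood at 7.25, 10.9 and 29.3 against 28.3 to 39.4. In all 3 genes dog 038 lay inside the B-Cell labelled range. Dog 029 was the lowest of the 7 in CD22 and CXCR5 but not in CD37, at 36.0.

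In the B-cell signalling and transcription list 7 of 25 genes had an identifier, 0 passed with the labels as given (median -2.32), and the median was -3.83 without the 2 dogs. BTK, the kinase downstream of the immunoglobulin receptor, stood at 8.13, 3.01 and 127 FPKM in the T-Cell labelled dogs, at 41.5 in dog 029 and at 105 to 179 in the 6. MEF2C, a transcription factor of B-cell proliferation, stood at 3.11, 0.522 and 67.9, at 37.9 in dog 029 and at 53.3 to 112. POU2AF1, the octamer coactivator, stood at 5.16, 1.37 and 42.7, at 9.60 in dog 029 and at 32.0 to 80.6. In 5 of the 7 genes dog 029 was below all 6 others, and in 5 of 7 dog 038 lay within their range.

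**Figure D5:**
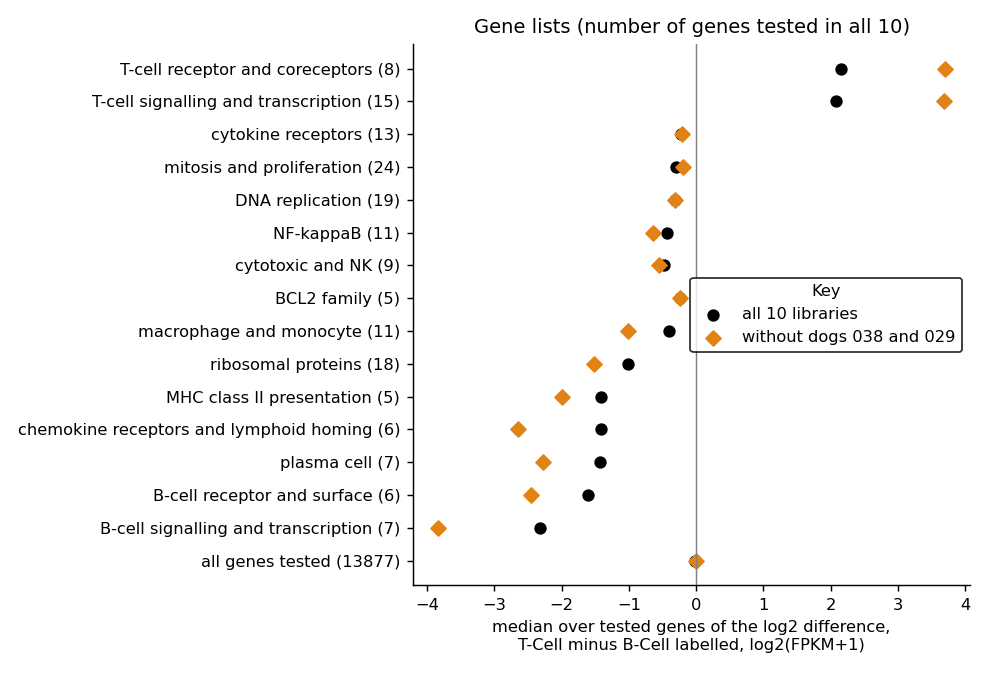
Median log2 difference, T-Cell minus B-Cell labelled, over the tested genes of each list, as black circles for all 10 libraries and orange diamonds without dogs 038 and 029. The T-cell receptor list moves from 2.16 to 3.70 and the B-cell signalling list from -2.32 to -3.83, while the mitosis list is at -0.30 and -0.20.

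The other large negative differences without the 2 dogs were in genes outside these lists. SWAP70, a signalling protein first known from B cells, stood at 10.4, 3.37 and 85.2 FPKM against 64.3 to 203. RASAL2, a GTPase-activating protein for Ras, stood at 2.05, 1.22 and 35.9 against 22.7 to 57.3. DENND5B, an exchange factor of Rab proteins, stood at 2.05, 0.550 and 47.6, at 9.53 in dog 029 and at 27.9 to 49.8 in the 6. PHEX, an endopeptidase known from phosphate metabolism, stood at 0.876, 0.680 and 29.1, at 3.07 in dog 029 and at 8.34 to 46.2. In each, dog 038 lay inside the range of the 7 B-Cell labelled dogs and far above dogs 028 and 036.

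Plasma cell genes set dog 034 apart within the B-Cell label. All 7 genes with an identifier, of 12, were lower in the T-Cell labelled libraries (median -1.43), 0 passed, and without the 2 dogs the median was -2.27. Dog 034 was highest of the 10 libraries in 6 of the 7 genes. XBP1, the transcription factor of the secretory programme, was 324 FPKM in dog 034 and 31.0 to 77.7 in the other B-Cell labelled dogs, with 33.8, 58.0 and 34.9 in the T-Cell labelled ones. PRDM1, the repressor that drives plasma cell differentiation, was 13.4 in dog 034 and 7.67 in dog 029, and 0.582 to 1.82 in the other 8. FKBP11, a chaperone of secretory cells, was 216 in dog 034 against 19.9 to 73.6 in the other 6 B-Cell labelled dogs and 3.48, 5.54 and 38.1 in the T-Cell labelled dogs. ELL2, the elongation factor of immunoglobulin secretion, was 74.3 in dog 034, and IRF4, shared by plasma cells and activated lymphocytes, was 36.9. XBP1 was named after its values were seen.

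MHC class II genes were lower in dogs 028 and 036. All 5 genes with an identifier, of 17, were lower (median -1.41), 0 passed with the labels as given, and without the 2 dogs the median was -2.0. DLA-DRA, the canine class II alpha chain, stood at 405, 190.3 and 1658 FPKM in dogs 028, 036 and 038 and at 1506 to 3708 in the B-Cell labelled dogs. DLA-DQA1 stood at 123, 46.0 and 737 against 313 to 906, and CIITA, the class II transactivator, at 1.298, 1.76 and 10.4 against 6.31 to 19.1. Dogs 038 and 029 lay within the B-Cell range of DLA-DRA and DLA-DQA1. Near-identical class II genes can share reads, so the split between them is uncertain. CTSS, a protease that trims class II ligands, reached 399 in dog 030 against 70.0 to 109.8 in the other B-Cell labelled dogs.

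Receptors for chemokines and cytokines split by member. In the homing list 6 of 20 genes were tested, and 0 passed with the labels as given (median -1.41). It includes CXCR5, also of the B-cell receptor list, and without the 2 dogs the list median was -2.65. The 1 gene with a positive difference was ITGAL, the integrin alpha L chain of lymphocytes. ITGAL stood at 100.1, 103.95 and 46.2 FPKM in the T-Cell labelled dogs, 78.2 in dog 029 and 21.6 to 30.9 in the 6. In the cytokine receptor list IL2RA was the 1 of 13 tested genes that passed with the labels as given, at a list median of -0.23. Without the 2 dogs 4 of 12 passed higher and 1 lower, beside 11.2% and 12% of all genes. The 2 dogs were left out for their lineage genes, which favours calls in receptors that follow the lineages. The counts are therefore a description. IL6ST, the signalling subunit shared by interleukin 6 family receptors, stood at 180.4, 116 and 16.7, at 48.4 in dog 029 and at 9.84 to 17.4 in the 6. IL10RA, the ligand-binding chain of the interleukin 10 receptor, did not overlap between labels, at 2.93, 2.26 and 4.70 against 4.93 to 14.7, and missed the threshold (difference -1.08, SE 0.38, limma adjusted p = 0.177). IL13RA1 stood at 3.45, 1.70 and 11.5 against 4.07 to 25.5 and overlapped. Dog 029 was highest of the 10 in 9 of the 15 cytokine receptor genes with an identifier.

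Of 9 tested cytotoxic and natural killer cell genes 0 passed with the labels as given (median -0.47). Of all genes 0.0144% passed higher and 0.0216% lower. Without the 2 dogs 1 passed higher (median -0.56), a share like the 11.2% of all genes. It was CD226, an activating receptor, at 34.2, 75.3 and 4.16 FPKM, 49.6 in dog 029 and 0.490 to 5.99 in the 6. CD226 had the pattern of the T-cell genes, so leaving out the 2 dogs favours this call. GZMK, a granzyme, stood at 3.81, 1.59 and 2.60 in the T-Cell labelled dogs, and at 24.8, 25.1 and 33.8 in dogs 029, 030 and 037 against at most 4.42 in the other 4. CCL5, a chemokine of cytotoxic cells, was high in the same 3 dogs, at 33.8, 34.8 and 26.5, and 1.47 to 4.47 in the other 4, with 8.37, 18.9 and 7.84 in the T-Cell labelled dogs. GZMA did not exceed 5.55 in any library.

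Dogs 029 and 038 had the lowest summed levels of proliferation genes. Of 24 mitosis genes 0 passed with the labels as given (median -0.30), beside 0.0144% of all genes higher and 0.0216% lower. Without the 2 dogs 1 passed lower (median -0.20), where 12% of all genes did. Without dog 038 alone the median was 0.04. Their summed FPKM was 1289, 1203 and 473 in dogs 028, 036 and 038, 312 in dog 029 and 849 to 1943 in the other 6 dogs. Dog 029 was the lowest of the 10 libraries in 21 of the 24. MKI67, the proliferation antigen Ki-67, stood at 68.7, 114 and 65.5 FPKM against 45.6 to 155, a difference of -0.42 (SE 0.38, limma adjusted p = 0.561). CDC20, which activates the anaphase complex, stood at 2.37, 3.75 and 2.89 against 2.58 to 8.10. Of 19 replication genes 0 passed with the labels and 2 passed lower without the 2 dogs, again beside 12% of all genes. FEN1, the flap endonuclease of lagging strand synthesis, stood at 10.6, 8.005 and 12.6 against a median of 23.4, with dog 029 lowest at 6.67. MCM2, of the replicative helicase, was 27.2 and 27.1 in dogs 028 and 036 and 27.2 at the median of the B-Cell labelled dogs.

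The NF-kappaB, PI3K and mTOR, and BCL2 family lists held no call with the labels as given, where 0.0144% of all genes passed higher and 0.0216% lower. Of 11 NF-kappaB genes 0 passed with the labels (median -0.43). Without the 2 dogs 3 passed lower (median -0.65), beside 12% of all genes, and 0 did when FPKM were also rescaled to the same total. NFKBIA, the inhibitor of NF-kappaB, stood at 48.6, 28.4 and 47.4 FPKM against 49.2 to 98.5 and did not overlap (difference -0.84, SE 0.25, limma adjusted p = 0.159). RELB and NFKB2, the noncanonical subunits, stood at 2.87 and 2.71 in dog 028 and at 8.64 and 19.4 in dog 038. Of 11 genes of the PI3K and mTOR list 0 passed with the labels (median 0.28), and 1 in each direction without the 2 dogs, where 11.2% of all genes passed higher and 12% lower. PIK3CA, a catalytic subunit, stood at 37.1, 34.3 and 28.0 against 29.0 to 62.8. Of 5 BCL2 family genes the 1 that passed lower without the 2 dogs, beside 12% of all genes, was BCL2A1, an inhibitor of apoptosis, at 3.45, 3.06 and 7.58 against 7.94 to 22.5.

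Some genes of other cell types in the aspirate were highest in dog 029 or dog 038. Summed FPKM of 11 macrophage and monocyte genes was 46.0 and 141 in dogs 028 and 036, 276 in dog 038, 461 in dog 029 and 170 to 456 in the other 6. CSF1R, the macrophage colony-stimulating factor receptor, stood at 1.99, 2.28 and 9.35, at 15.0 in dog 029 and at 4.11 to 7.67 in the rest. C1QA, a complement chain of macrophages, stood at 0.951, 1.27 and 19.8, at 22.1 in dog 029 and at 4.26 to 14.1. APOE, the apolipoprotein of macrophages, was 12.3, 80.2 and 47.0 against 70.3 to 309.7. Of 9 tested macrophage genes 4 passed lower without the 2 dogs, beside 12% of all genes, and 2 did after rescaling to the same total. CSF3R, the granulocyte colony-stimulating factor receptor, was 8.13 in dog 038 and at most 0.933 in the other 9, and S100A8, a granulocyte calgranulin, was 15.3 in dog 038, 7.98 in dog 029 and 0 in dogs 036 and 003. COL1A1 and COL3A1, fibrillar collagens of stroma, were 12.3 and 9.46 in dog 029 and at most 1.04 and 1.44 in the other 9. The 4 stroma and endothelium markers together, which also hold PECAM1 and VWF of endothelium, summed to 58.9 FPKM in dog 029, 58.4 in dog 027 and 9.64 in dog 038, and to 4.22 to 16.2 in the other 7. Of the markers fixed per cell type, 4 of 6 for T cells, 2 of 7 for B cells, 1 of 5 for macrophages, 2 of 5 for granulocytes and 4 of 5 for stroma had an identifier. The part of these cells in the lineage differences was not tested.

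Ribosomal protein genes were lower in dogs 028, 036 and 029 than in the other 6 B-Cell labelled dogs. Summed FPKM of the 18 was 21181 and 11461 in dogs 028 and 036 and 23789 in dog 029. It was 31773 in dog 038 and 32735 to 53218 in the 6. Dog 029 was below all 6 in 16 of the 18 genes, and dogs 028 and 036 both were in 15. All 18 genes with an identifier had a negative difference (median -1.01), 0 passed with the labels as given, and 12 passed lower without the 2 dogs (median -1.51), where 12% of all genes did. That count was 7 after quantile normalization and 10 after rescaling to the same total, with medians of -1.04 and -1.43. RPS7 stood at 552, 281 and 885 FPKM in the T-Cell labelled dogs, at 817 in dog 029 and at 1144 to 2179 in the 6, and RPL8 at 550.2, 341 and 1269, at 967 and at 1302 to 2558. Processed copies of ribosomal protein genes can take up their reads, so single values are uncertain.

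The later libraries of the same dogs, drawn 6 weeks into treatment, were read as values only. CD3E was 187.6 FPKM in dog 028, 64.7 in dog 036 and 37.9 in dog 038, and in the B-Cell labelled dogs it was 245 in dog 029, 149 in dog 034 and 3.00 to 33.4 in the other 5. PAX5 was 1.07, 12.7 and 13.3 in the T-Cell labelled dogs, 7.20 in dog 029 and 13.03 to 42.9 in the other 6. IL2RA was 1.93, 9.46 and 7.46 in the T-Cell labelled dogs and 15.3 to 32.3 in the B-Cell labelled dogs, so that the labels did not overlap for it at this timepoint either. These are the same dogs, and treatment lies between the samples.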

How the data were processed

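Fine needle aspirates of 10 dogs, 1 initial library each, were compared. The submitters' processing notes name HISAT2 2.1.0, StringTie 1.3.3 and the CanFam3.1 build. FPKM values were deposited by the authors and correct reads for transcript length and library depth. Whole-number read counts per gene, also deposited by the authors, gave total counts. In 4 of the 10 libraries (dogs 027, 028, 029 and 030) counts and FPKM of the same gene ID correlated at a Spearman rho of 0.0943 to 0.11, against 0.911 to 0.983 in the other 6, so counts of genes were used only in alternatives on those 6.

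Symbols, available for 5086 of 32704 gene IDs, came from the study's supplementary gene tables, which were sorted by significance in other comparisons; lists are therefore incomplete. Of 13877 tested genes 3854 had a symbol. Log2(FPKM+1) of genes with a mean FPKM above 1 was fitted with limma 3.58.1 (trended eBayes) in R 4.3.3, after a test on simulated data, and p-values were adjusted by Benjamini-Hochberg over all tested genes. The study's own model compared other groups on counts. Python 3.11.15, NumPy 2.4.6, pandas 2.3.3 and matplotlib 3.10.9 made summaries and figures, and edgeR 4.0.16 and DESeq2 1.42.0 were used in alternatives. Labels give 1 library per dog, so p-values measure the spread between dogs.

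The libraries compared and the lists were chosen with earlier results of these data known. Named genes were the given markers, called genes with a symbol or the 8 of smallest p per direction, the first and the 4 smallest-p members of each list, and the 10 largest called differences per direction without dogs 038 and 029. Not every gene that rule gives is printed, and some genes of the lists are not reported here. Alternatives were another pseudocount (0.1), no filter, a mean FPKM above 5, no trend, rescaling to the same total, quantile normalization, leaving out libraries, and the count subsets. PTPRC, CD79A and MS4A1 were not analysed here.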

Additional observations from a re-analysis of the deposited data

Results flagged for a closer look

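Values of the 7 B-Cell labelled libraries were examined for a single library apart from the rest, which was taken to be the case where the gap to its nearest neighbour divided by the whole range exceeded Dixon's 95% critical value for 7 samples, on log2(FPKM+1) for genes and on the count itself for depth. Of 88 values examined 18 met it. Chance gives about 1 group in 20, but the genes were named for their differences between these libraries, some of them (IL7R, PRKCQ and XBP1) after their values were seen, so the 2 shares cannot be compared. Groups of 3 are not tested in this way, so the T-Cell labelled libraries are not covered.

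The library of dog 029 was apart in 13 of the 18. It was highest in T-cell genes: CD5 at 36.2 FPKM against 0.179 to 3.16 in the other 6, CD28 at 28.4 against 0.0944 to 3.41, GATA3 at 9.83 against 0.0838 to 0.908, FYB1 at 130.4 against 1.80 to 10.5 and THEMIS at 48.0 against 0.149 to 4.33. The same held for IL7R at 131 against 0.851 to 10.1 and PRKCQ at 37.4 against 0.274 to 3.97. It was highest in IL6ST at 48.4 against 9.84 to 17.4, and in ITGAL at 78.2 against 21.6 to 30.9. The stromal collagens COL1A1 and COL3A1 stood at 12.3 and 9.46, against 0.167 to 1.04 and 0.159 to 1.44. It was lowest in BTK, at 41.5 against 105 to 179, and in DENND5B, at 9.53 against 27.9 to 49.8. Whether the label, the sample or the mixture of cells in the aspirate set this library apart was not tested.

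The other 5 were spread over 4 dogs. CD3D was lowest in dog 030 at 7.21 FPKM, against 25.5 to 52.7. CTSS was highest in the same dog at 399, against 70.0 to 109.8. MREG was highest in dog 003 at 16.3, against 0.448 to 2.61, and XBP1 in dog 034 at 324, against 31.0 to 77.7. The total count was highest in dog 037, at 43413353 against 10047845 to 24096548.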

How the results depend on the processing

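With the labels as given, limma called 2 genes higher and 3 lower. The counts were 0 and 8 with a pseudocount of 0.1, 0 and 1 without a filter, and 0 and 1 at a mean FPKM above 5. They were 1 and 1 with the set of libraries whose counts were misplaced as a covariate, 1 and 3 in the 6 libraries with matching counts, and 0 and 0 in the other 4, where 1345 genes had an unadjusted p under 0.05. On the counts of those 6 edgeR called 0 and 1, with TMM as with DESeq2 size factors (2880 and 2900 at an unadjusted p under 0.05), and DESeq2 called 847 and 603. No trend, rescaling and quantile normalization each gave 2 higher and 2 or 3 lower. Leaving out 1 library gave 0 to 821 higher and 1 to 1001 lower. Of these, only dogs 029 (142 and 167) and 038 (821 and 1001) gave more than 4 calls. Without both there were 1512 and 1630, and then, in fits chosen after seeing the data, 1133 and 941 with rescaling, 1576 and 1748 with quantile normalization and 1394 and 1792 with the smaller pseudocount. CD3D turned to -0.38 in the libraries with matching counts, and ran from -0.29 to 2.07 when 1 library was left out. C1QA turned to 0.22, 0.20 and 0.20 and CSF1R to 0.17, 0.16 and 0.16 under edgeR with TMM, edgeR with DESeq2 size factors and DESeq2. Of the other values of named genes under these alternatives, 1508 kept their direction and side of the threshold, 167 passed it and 56 lost it. Most of those that passed came from leaving out dog 038, dog 029 or both, or from DESeq2. The cause of these changes was not tested. No paired analysis was possible because the labels hold different dogs. With 3 libraries against 7, of which 2 went wholly or partly against their labels, small differences were not detectable, and zeros in the FPKM table can be failed estimates.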
